A study of Mus musculus with 111 samples.

Results

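The read-count table of this mouse small RNA study holds 1268 entries, of which 156 carry a name that starts with pi- followed by a gene symbol, such as pi-Lpp.1. These are piRNA precursors named after a host gene. Entries that differed by less than 5% of their reads were taken to list the same reads, which removed 28 of the 156. The remaining 128 belonged to 76 host genes, 26 with 1 entry and 50 with several. Each gene was represented by its most abundant entry, giving 76 members with 12931 reads in all. Of the 52 further entries of these genes, 51 never exceeded the leading entry in a library.

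Small RNA libraries were made with OTTR-seq, a method whose reverse transcriptase attaches the adapters during cDNA synthesis. The 6 tissues were testis, the caput and cauda of the epididymis, cauda sperm, liver and heart. Mice ate 1 of 4 diets for 6 months. The control diet held 18% protein, and the low-protein diet 10%, with sucrose making up the difference. The high-fat diet drew 60% of its calories from fat and its own control, the high-fat control diet, is labelled with 7.2%, although the same label sets the 60% against 16%, a difference that could not be resolved here. The labels name no strain, genotype or age at sampling. There were 111 libraries in 24 groups of tissue and diet, with 4 or 5 in each. Nothing in the labels says that libraries of 1 group are separate animals, so the p-values describe the spread between libraries, which may in part be technical.

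PIWI-interacting RNAs (piRNAs) are small RNAs of the germ line that guide PIWI proteins to silence transposons and to act on other transcripts. They are cut from long single-stranded precursors, and the mouse testis makes them in waves. Prepachytene precursors often derive from messenger RNAs of protein-coding genes, largely from the 3′ untranslated region, whereas pachytene precursors come mainly from long intergenic loci that are switched on in meiosis by the transcription factor A-MYB. The host-gene names in the table mark the first kind of locus in part, and a second set of 147 precursors, named after chromosome bands, consists mostly of intergenic loci. A host messenger RNA can also leave fragments in a small RNA library. Read lengths are not in the table, so piRNAs and other fragments of a host RNA could not be told apart.

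All 76 hosts were found in the annotation of the mouse genome build GRCm38 (mm10), 70 under the name in the table and 6 under a newer symbol. Of the hosts, 75 were protein-coding genes, and 1, Gm5878, was a long intergenic non-coding RNA gene (chr6:85111416-85126125, minus strand). The positions below are those of the host genes. The precursor's own boundaries, and whether the counting used strand, were not given in the sources used here.

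Depth over the 1040 features kept after the removal of same-read entries ranged from 827 to 809056 reads per library in liver, from 11318 to 1467855 in heart, from 10082 to 671067 in testis, from 912 to 92672 in caput, from 12162 to 628465 in cauda and from 8526 to 134875 in sperm. Levels are given as RPM, scaled to the sum of these kept reads. A member level in a shallow library often rests on a few reads. Kept reads made up a mean of 60.5% of the reads of all entries in testis, 41.2% in cauda and 22.3% in sperm. Dividing by all entries of the table, repeats included, therefore lowered levels unequally: mean pi-Lpp fell from 214 to 121 RPM in testis, from 261 to 102 RPM in cauda and from 205 to 43.4 RPM in sperm.

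For 7 members, the count was an even number in every library with a read: Wdfy3 (59 libraries), Arhgap20 (37), Tmem194 (27), Cdc42ep3 (23), 1700016M24Rik (22), 1700006A11Rik (20) and Gm5878 (17). In the other 69 members, 37.3% of the non-zero counts were even. The band-named set showed the same feature in 134 of 147 precursors. The counts looked as if each read had been entered 2 times, which the sources used here do not state. Levels below are as deposited, and tests were repeated, under TMM scaling only, with the counts of all even-only features halved.

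In 5 of the 24 groups 1 library stood apart from the rest of its group by its summed member share: low-protein liver replicate 5, high-fat control heart replicate 4, high-fat heart replicate 3, control testis replicate 3 and high-fat testis replicate 4. Summed shares, the numbers of members called and the diet results that touch them are given with and without them.

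The members were found mainly in testis, cauda and sperm. They took 0.318% ± 0.267 (SD, n = 19 libraries) of kept reads in testis, 0.254% ± 0.123 (n = 18) in cauda and 0.291% ± 0.146 (n = 19) in sperm. Shares were 0.0239% ± 0.0354 (n = 17) in liver, 0.0105% ± 0.00893 (n = 19) in caput and 0.00233% ± 0.00480 (n = 19) in heart. The heart mean rests on 2 libraries: it was 0.00147% without high-fat control replicate 4, 0.00169% without high-fat replicate 3 and 0.000747% without both, and the median over all 19 was 0.000929%. Without the libraries that stood apart the testis mean was 0.279% and the liver mean 0.0222%. The ranges of testis (0.0494% to 0.949%), cauda (0.04996% to 0.547%) and sperm (0.0978% to 0.633%) overlapped almost wholly. Over all entries of the table the order was different, with 0.181% ± 0.147 in testis, 0.0991% ± 0.0436 in cauda and 0.0569% ± 0.0290 in sperm. The band-named precursors, by contrast, took 4.03% of reads in testis, 0.0460% in cauda and 0.149% in sperm. With even-only counts halved, the members' shares were 0.279% in testis, 0.246% in cauda and 0.286% in sperm, and those of the band-named precursors were 2.17%, 0.0338% and 0.0918%. In tissue RNA, fewer cells of a type and less of the RNA per cell cannot be told apart, and the cauda as a tissue also contains sperm.

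**Figure D1:**
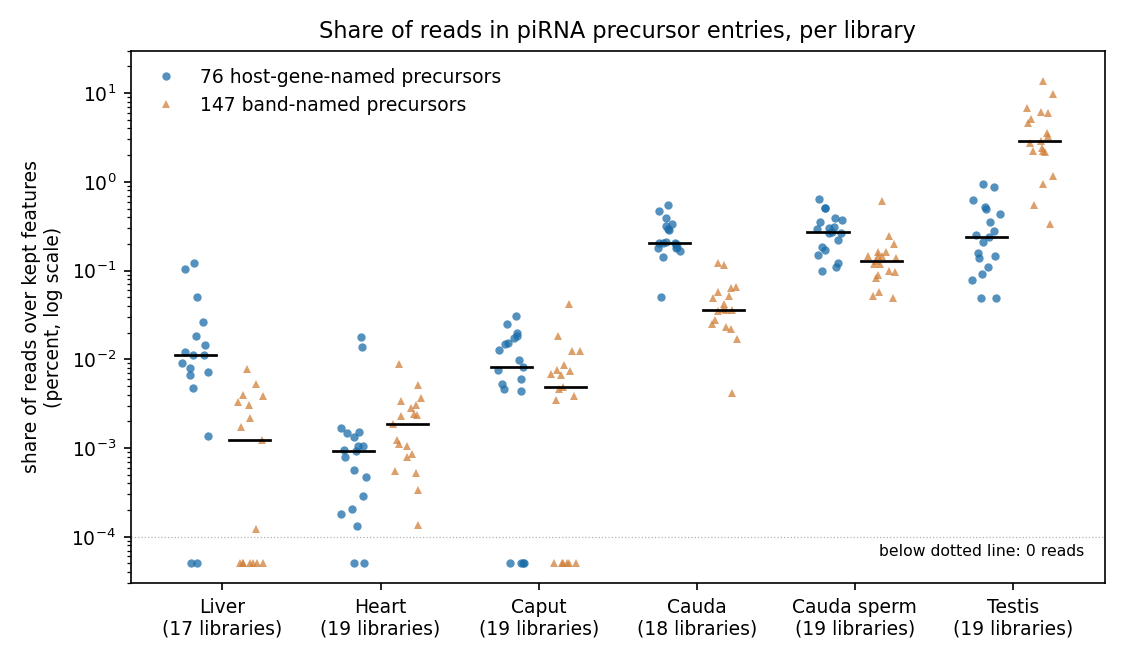
Share of kept reads (percent, log axis) in the 76 host-gene-named members (circles) and the 147 band-named precursors (triangles), with 1 point per library and a bar at the median of each tissue. Points under the dotted line are libraries with 0 reads. Over kept reads members take similar shares in testis, cauda and sperm, which is not so over all entries, and band-named precursors stand above them only in testis and, by their median, in heart.

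Every member had a read in testis, 75 of 76 had one in sperm and 74 in cauda. Liver had reads of 64 members, heart of 45 and caput of 36, and without the libraries that stood apart liver had reads of 54 and heart of 29. The reads were spread over many members: the leading member took 8.15% of member reads in testis (Arhgap20, 450 reads), 10.0% in cauda (Lpp, 454 reads) and 6.64% in sperm (Wdfy3, 150 reads). Arhgap20 and Wdfy3 have even-only counts, and with these halved Strbp led in testis with 425 reads (9.14%) and Lpp in sperm with 134 (6.19%), while Lpp stayed first in cauda. Over kept reads, the highest mean RPM of a member was in sperm for 36, in testis for 24, in cauda for 15 and in liver for 1. Over all entries, the highest mean was in testis for 40, in cauda for 29, in sperm for 6 and in liver for 1, so the tally depends on the denominator.

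**Figure D2:**
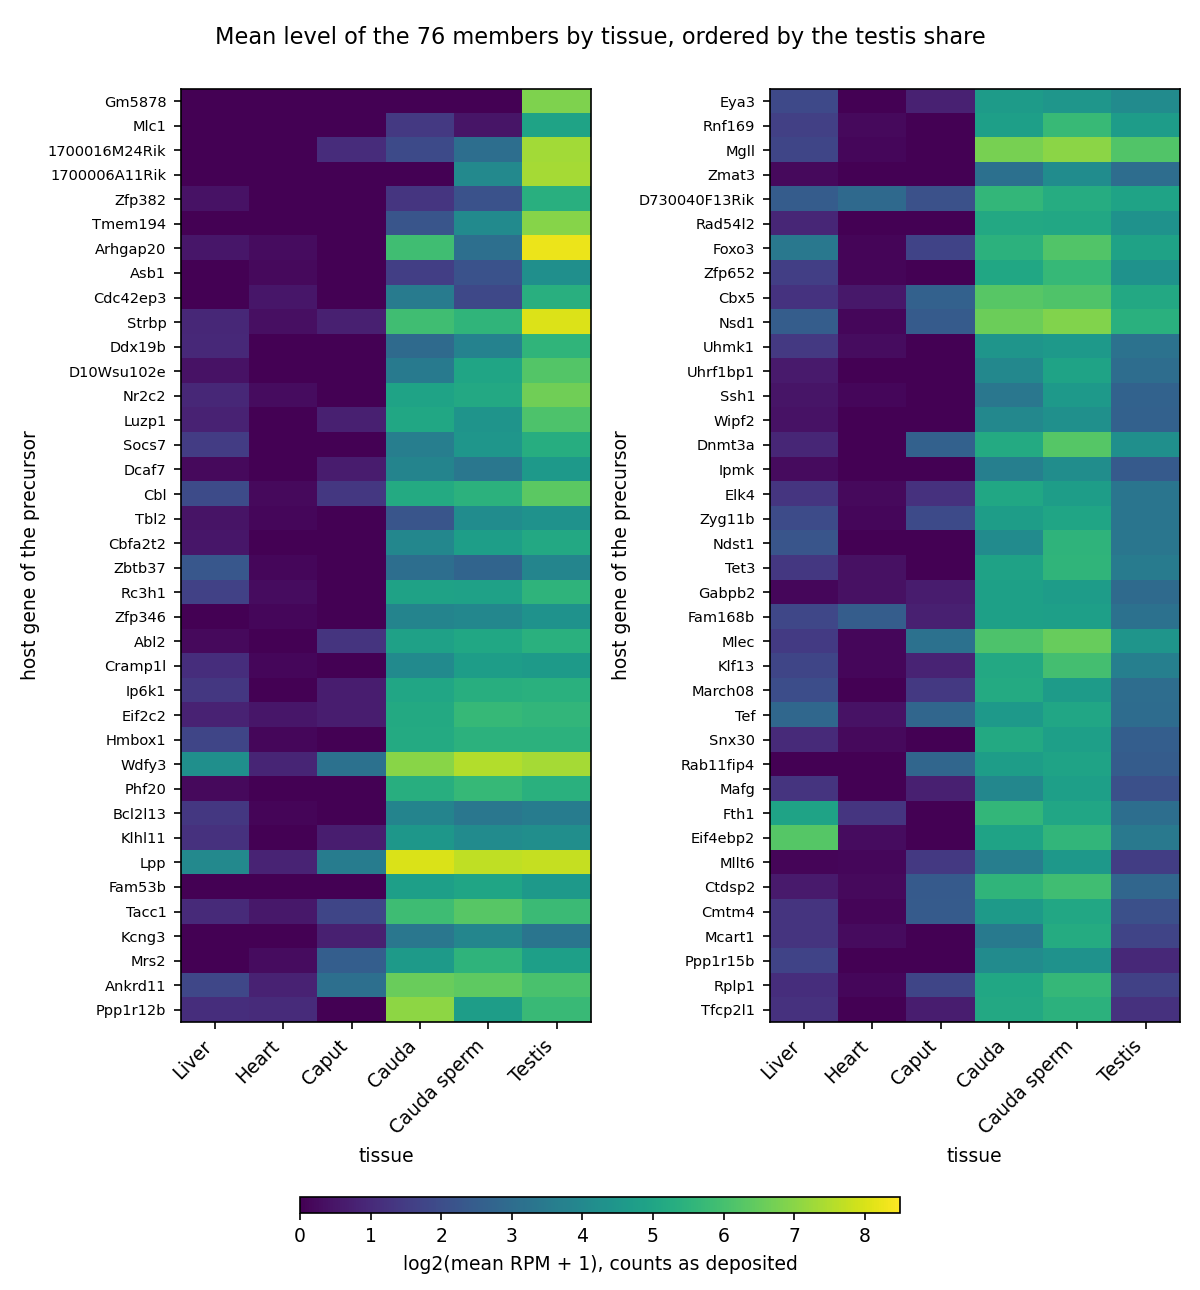
Mean level of each of the 76 members in the 6 tissues, as log2(mean RPM + 1), ordered by the share of the summed tissue means that falls in testis. Members at the top left, from Gm5878 to Strbp, are brightest in testis, and members at the lower right, ending with Tfcp2l1, are brighter in cauda and sperm than in testis. The bright liver cell of Eif4ebp2 rests on 1 read in a library of 827 reads.

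Lpp, which encodes a LIM-domain protein of focal adhesions (chr16:24393507-24992578, plus strand), was the most abundant member and the only one with a read in every testis, cauda and sperm library. Its level was 214 ± 169 RPM in testis (lowest 32.8, median 179, highest 593), 261 ± 135 in cauda (54.1, 244 and 544) and 205 ± 150 in sperm (17.4, 176 and 704). These 3 ranges overlapped. In liver it was 15.0 ± 32.1 RPM, in caput 10.8 ± 23.3 and in heart 0.808 ± 1.96, with 0 reads in some libraries of each.

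Wdfy3, a scaffold protein of selective autophagy (chr5:101832956-102069921, minus strand), was also found in all 3, with 162 ± 189 RPM in testis (0 to 616), 125 ± 120 in cauda (0 to 526.4) and 183 ± 175 in sperm (0 to 704). Lpp and Wdfy3 were the only members that passed the filter on low counts in the fit over all tissues, which tested 293 features with edgeR's quasi-likelihood test (TMM scaling, diet as a term, Benjamini-Hochberg adjustment). Calls between tissues required an adjusted p under 0.05 with a log2 fold change of 1 or more in size. Both were higher in testis than in the mean of the other 5 tissues, Lpp by 1.91 ± 0.28 on the log2 scale (SE, adjusted p = 4.8e-10) and Wdfy3 by 1.54 ± 0.36 (adjusted p = 7.6e-05). In that comparison 58% of the 293 features were called in either direction. Liver, heart and caput, with low levels of both, are part of that mean. Against cauda alone neither was higher in testis: cauda over testis was 0.98 ± 0.36 for Lpp and 0.43 ± 0.47 for Wdfy3 (edgeR, adjusted p = 0.00996 and 0.397). These 2 differences lay under the fold required for a call. Both were also higher in cauda than in caput, Lpp by 4.48 ± 0.54 (adjusted p = 1.1e-12) and Wdfy3 by 3.19 ± 0.70 (adjusted p = 3.1e-05), where 64.5% of features were called. With even-only counts halved, Wdfy3 no longer passed the filter. Without the filter and halved, its differences were 1.40 and 2.86 (edgeR, adjusted p = 1.2e-05 and 2.7e-05). Neither was called between sperm and testis, with 0.60 ± 0.37 for Lpp and 0.91 ± 0.48 for Wdfy3 (adjusted p = 0.126 and 0.0741), or between sperm and cauda, with -0.38 ± 0.37 and 0.48 ± 0.50 (adjusted p = 0.733 and 0.440). Those 2 comparisons called 75.4% and 42.3% of features.

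Since the filter left out 74 of the 76 members, the tests over all members below come from the same edgeR fit without the filter, with 905 features. These include the members, the 52 further entries of their genes and the 147 band-named precursors. Because reads of piRNA precursor entries make up different parts of each library, it was run under 4 scalings: TMM, total counts, relative log expression, and TMM computed without any piRNA precursor. A call counted under all 4 scalings had to have the same direction in each. As a further scaling, chosen after seeing the data, library totals were taken over all entries of the table, repeats included. It is given apart because repeats take such unequal parts of the tissues' reads.

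Between testis and the mean of the other 5 tissues, 40 members were higher under all 4 scalings, and 30 of these also in DESeq2, which called 40.6% of features higher. Of all 905 features, 42% were called higher under the same rule and 2.87% lower, so 40 of 76 members was not far from the whole table. The members' median log2 difference was 1.02, against 0.62 for all features. The band-named precursors, which are among all features and weigh on their median and share called, had a median of 5.58. Without the 5 libraries that stood apart, 36 members were higher under TMM (40.7% of features), against 40 with them (42%). With totals over all entries 63 members were higher, the 40 among them, where 73.5% of features were. A call against the mean of 5 tissues need not hold against each: of the 40, Ppp1r12b was higher in cauda than in testis under all 4 scalings, and Zfp652 in sperm. Under TMM scaling 2 members were lower, Rplp1 and Cmtm4, where 10.7% of features were, and neither was called under total counts or relative log expression.

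The largest testis differences were those of Gm5878, 1700006A11Rik, 1700016M24Rik, Arhgap20 and Tmem194, all among the 7 with even counts. Gm5878 had 200 counted reads in 17 of 19 testis libraries, with a lowest level of 0, a median of 70.4 and a highest of 381 RPM, and 0 reads in each of the other 5 tissues. 1700006A11Rik, an uncharacterised protein-coding gene (chr3:124400989-124426040, minus strand), was at 161 ± 148 RPM in testis (0, 129 and 554), 14.9 ± 54.4 in sperm, where 17 of 19 libraries had 0 reads, and 0 elsewhere. 1700016M24Rik, now named Mroh4 (chr15:74606029-74636353, minus strand), was at 160 ± 171 RPM in testis (0, 108 and 616), 7.48 ± 25.7 in sperm and 2.72 ± 11.5 in cauda.

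Arhgap20, a GTPase-activating protein (chr9:51765337-51853856, plus strand), was at 304 ± 592 RPM in testis, with a lowest level of 0, a median of 129 and a highest of 2636. The highest value, from the high-fat control group, stood far above the other 18 libraries, of which the next was 645.5 RPM. Its cauda level was 58.1 ± 69.9 RPM (0, 42.4 and 261) and its sperm level 7.69 ± 17.6 (0, 0 and 66.1). Tmem194, now named Nemp1, a nuclear envelope protein (chr10:127666901-127701049, plus strand), was at 124 ± 140 RPM in testis (0, 71.9 and 520), 15.9 ± 27.8 in sperm and 3.75 ± 7.02 in cauda.

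Fitted differences from the other tissues were 5.96 ± 0.38 on the log2 scale for Gm5878 (edgeR, adjusted p = 1.5e-22), 5.87 ± 0.36 for 1700006A11Rik (adjusted p = 2.0e-26), 5.08 ± 0.34 for 1700016M24Rik (adjusted p = 9.2e-28), 4.86 ± 0.37 for Arhgap20 (adjusted p = 1.7e-24) and 4.70 ± 0.37 for Tmem194 (adjusted p = 1.2e-21). Where a group had no reads, the fitted value depends on the fit's prior count and is not a bound. With counts halved and a floor of 3 reads over the group, pooled Gm5878 was at least 8.44-fold higher in testis than in sperm and at least 22.6-fold higher than in cauda. Pooled 1700006A11Rik was at least 31.9-fold higher in testis than in cauda.

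Strbp encodes the spermatid perinuclear RNA-binding protein (chr2:37483228-37703859, minus strand), which is needed for normal sperm development. It had 425 reads in testis and was at 263 ± 251 RPM there (0, 208 and 857). In cauda it was at 57.97 ± 53.2 RPM (0, 41.2 and 193) and in sperm at 46.8 ± 50.7 (0, 33.1 and 171). Its testis difference from the other tissues was 4.04 ± 0.29 (edgeR, adjusted p = 1.5e-27), and its counts were not restricted to even numbers.

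Sperm and testis differed in the relative levels of the members. Under all 4 scalings 32 members were higher in sperm and 9 were lower. These 32 and 9 were also called with even-only counts halved, a fit run under TMM scaling only, which called 35 higher and 13 lower in all. DESeq2 also called 31 of the 32 and 5 of the 9, where it called 28.7% of features higher and 22.8% lower. Of all 905 features, 23% were called higher in sperm under all 4 scalings and 32.2% lower. Under TMM alone 46 were higher and 9 lower, where 31.6% and 34.7% of features were, and without the 5 libraries that stood apart the counts were 50 and 9 (32% and 34.7%). With totals over all entries only 8 members were higher in sperm and 37 were lower, where 11.2% and 63.9% of features were called. All 9 lower members stayed called. Of the 32 higher members 8 stayed called, 19 kept the direction without a call, and 5 turned to a lower level in sperm without a call. The 8 were Rplp1, Tfcp2l1, Cmtm4, Klf13, Ctdsp2, Ppp1r15b, Mllt6 and Mafg, named because they held. The members' median log2 difference was 1.39, against -0.15 for all features under TMM, and 61 of 76 members lay above that median. Scaling moved the median of all features from -0.15 to -0.83 with total counts, -0.03 with relative log expression and -0.56 without piRNA precursors. The gap between the members' median and that of all features ranged from 1.52 to 1.68 over the 4 scalings. The members' median was -0.78 with totals over all entries, that of all features -2.21, and the gap 1.43. The band-named precursors went the other way: 131 of 147 were lower in sperm and 1 was higher under TMM, with a median of -4.16. They are among the 905 features, so they weigh on the medians and shares of all features given here.

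**Figure D3:**
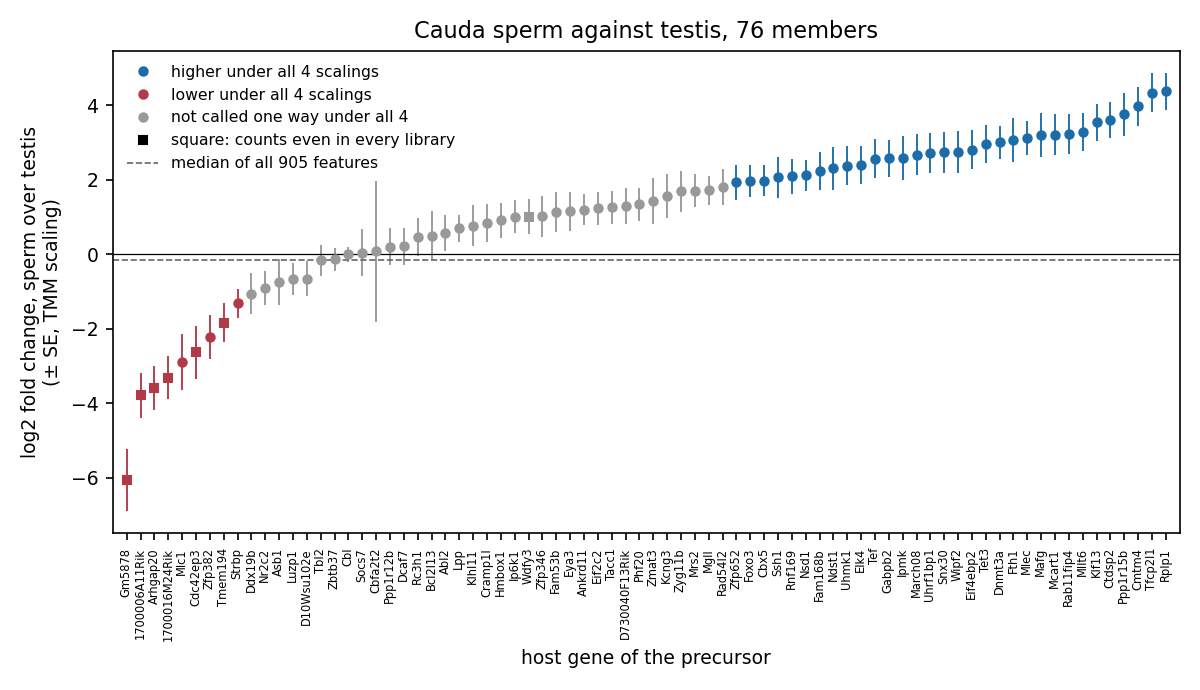
Log2 difference of sperm over testis for the 76 members (± SE, edgeR without the filter, TMM scaling), in order of size, with squares for the 7 members whose counts are even in every library. Blue marks the 32 members higher and red the 9 lower under all 4 scalings, and the dashed line is the median of all 905 features. With library totals over all entries, 8 of the 32 and all 9 stay called. The SE is the difference divided by the root of its F statistic, so it is unstable close to 0, as for Cbfa2t2.

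The 9 members lower in sperm were Gm5878, 1700006A11Rik, Arhgap20, 1700016M24Rik, Mlc1, Cdc42ep3, Zfp382, Tmem194 and Strbp. Mlc1, Cdc42ep3 and Zfp382, named here because the count is small, encode a membrane protein of astrocytes, a CDC42 effector and a zinc finger protein. Of the 9, 6 belong to the 7 members with even counts. Arhgap20 was lower by -3.60 ± 0.59 on the log2 scale (edgeR, adjusted p = 4.6e-08) and by -3.95 with halved counts. Strbp, the most read of the 9 once even-only counts are halved, was lower by -1.32 ± 0.40 (adjusted p = 0.00207). Pooled 1700006A11Rik was 17.8-fold higher in testis than in sperm, with an exact interval of 4.85 to 149 for counting error from 141 against 2 halved reads.

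The largest differences in favour of sperm were those of Rplp1, Tfcp2l1 and Cmtm4. Rplp1, a protein of the ribosomal stalk (chr9:61913284-61914542, minus strand), was at 2.15 ± 3.89 RPM in testis (0, 0 and 12.4), 32.2 ± 22.2 in cauda (0, 32.3 and 82.8) and 49.2 ± 56.1 in sperm (0, 38.1 and 196). Only 6 of 19 testis libraries had a read, against 16 of 18 in cauda and 13 of 19 in sperm. The sperm difference from testis was 4.38 ± 0.50 (edgeR, adjusted p = 2.3e-14).

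Tfcp2l1, a transcription factor of epithelial and pluripotent cells (chr1:118627945-118685168, plus strand), was at 1.29 ± 3.20 RPM in testis, with reads in 3 of 19 libraries, at 33.9 ± 26.7 in cauda and at 42.8 ± 49.97 in sperm. Its sperm difference from testis was 4.34 ± 0.52 (adjusted p = 9.4e-13 in edgeR). Cmtm4, a membrane protein of the MARVEL domain family (chr8:104348191-104395807, minus strand), was at 3.23 ± 6.69 RPM in testis, 23.9 ± 27.8 in cauda and 33.5 ± 41.9 in sperm, a difference from testis of 3.97 ± 0.53 (adjusted p = 3.8e-11 in edgeR). In each of the 3 the testis and sperm ranges overlapped, since some sperm libraries had 0 reads.

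Abundant members lay between these ends. Mgll, the monoacylglycerol lipase (chr6:88724412-88828360, plus strand), was at 72.8 ± 80.8 RPM in testis (0, 37.1 and 330), 107 ± 75.9 in cauda (19.1, 88.4 and 298) and 128 ± 80.9 in sperm (0, 117 and 342). It was higher in sperm by 1.72 ± 0.39 under TMM (edgeR, adjusted p = 4.4e-05) and by 0.95 under total counts, under the fold required, so it is not among the 32, and with totals over all entries its difference was -0.62 and not called. Nsd1, a histone H3 lysine methyltransferase (chr13:55209782-55318325, plus strand), was at 41.1 ± 46.6 RPM in testis, 96.1 ± 75.6 in cauda and 118 ± 110 in sperm, and it was called higher in sperm under all 4 scalings (2.12 ± 0.42 under TMM, adjusted p = 3.4e-06 in edgeR), but with totals over all entries it differed by -0.25 and was not called.

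Ankrd11, a chromatin regulator (chr8:122883822-123042277, minus strand), was at 66.1 ± 74.4 RPM in testis, 93.9 ± 46.9 in cauda and 83.0 ± 42.8 in sperm. Tacc1, a coiled-coil protein of the centrosome (chr8:25154552-25256588, minus strand), was at 54.4 ± 58.1, 57.4 ± 41.1 and 77.2 ± 99.7 RPM in the same order. Cbl, an E3 ubiquitin ligase (chr9:44142976-44234049, minus strand), was at 80.8 ± 92.1, 35.6 ± 26.8 and 42.9 ± 42.1 RPM. Tacc1 and Ankrd11 were called higher in sperm under TMM but not under total counts, and Cbl differed by 0.00 in edgeR under TMM. All 3 were called lower in sperm with totals over all entries, Tacc1 by -1.17, Ankrd11 by -1.18 and Cbl by -2.37.

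Per kilobase of the host's longest annotated transcript, which need not be the precursor's length, the order changed. In testis 1700006A11Rik led with 74.5 RPM per kilobase, before 1700016M24Rik with 44.6 and Arhgap20 with 42.5, all 3 with even counts. In sperm Rplp1 led with 98.6 RPM per kilobase and Mgll followed with 32.1. In cauda the first was also Rplp1, with 64.5 RPM per kilobase.

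Few members were called between sperm and the cauda that contains them. Under all 4 scalings, 2 members were lower in sperm, where 4.2% of the 905 features were called lower, and 1 was higher, against 13.7% of features. The 2 were Ppp1r12b and Arhgap20. Ppp1r12b, a regulatory subunit of myosin phosphatase found in muscle (chr1:134754658-134955942, minus strand), was at 133 ± 78.4 RPM in cauda (0, 114 and 291), 25.7 ± 31.2 in sperm (0, 17.4 and 97.7) and 53.7 ± 45.98 in testis (4.72, 37.1 and 162). It was lower in sperm than in cauda by -1.98 ± 0.47 (edgeR, adjusted p = 3.3e-04), and in DESeq2 by -1.51 (adjusted p = 0.0394). Arhgap20 was lower by -2.26 ± 0.63 (edgeR, adjusted p = 0.00270), and DESeq2 did not call it (adjusted p = 0.178). The member called higher, 1700006A11Rik, had 4 counted reads in sperm and 0 in cauda, and its call was lost with halved counts (edgeR, adjusted p = 0.0750). Under relative log expression alone 41 members were higher in sperm than in cauda (42.1% of features), under TMM 9 (23.8%) and under total counts 2 (16.4%), so the count of higher members depends on the scaling. With totals over all entries 1 member was higher (8.18% of features) and 18 were lower (33.3%). Among the 9 were Tmem194, higher by 1.81 ± 0.67 (edgeR, adjusted p = 0.0288), and Tbl2, a WD-repeat protein at 16.4 ± 34.5 RPM in sperm and 3.78 ± 7.56 in cauda, higher by 1.70 ± 0.64 (adjusted p = 0.0320). Neither was called with total counts or with totals over all entries as the scaling.

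Cauda against testis, a comparison added after seeing the data, gave 24 members higher and 13 lower under all 4 scalings, where 18.6% and 37% of features were called. All 24 and 13 were also called with even-only counts halved, a fit run under TMM scaling only. That fit called 35 members higher and 15 lower in all. With totals over all entries 17 of the 24 and all 13 stayed called, among 17 members higher and 20 lower (14.9% and 49.3% of features). Of the 5 largest differences on the log2 scale (edgeR, TMM, ± SE), Tfcp2l1 alone was higher in cauda, by 3.84 ± 0.49. The other differences, all in members with even-only counts, were -6.74 ± 0.67 for 1700006A11Rik, -6.19 ± 0.66 for Gm5878, -4.84 ± 0.58 for 1700016M24Rik and -3.65 ± 0.55 for Tmem194.

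Cauda and caput, the far and near ends of the epididymis, stood well apart. In caput 40 of the 76 members had 0 reads in 19 libraries, and 81 member reads were found among 690622. In cauda, 68 members were higher than in caput under all 4 scalings and 0 lower in any, where 40.7% of all 905 features were called higher and 10.2% lower. DESeq2 called 28 higher and 0 lower, against 22.9% and 10.2% of features, and 66 remained with halved counts. Scaled to totals over all entries, 62 were higher (32.5% of features). The median fitted difference of the members was 3.42 against 1.32 for all features, and 2.63 when the 36 members with 0 reads in caput and over 3 in cauda were set to their lower bounds. In DESeq2 the medians were 1.53 for the members and 0.02 for all features. Pooled over libraries, Ppp1r12b was at least 24.7-fold higher in cauda than in caput, Mgll at least 16.9-fold and Fth1, the ferritin heavy chain, at least 9.41-fold. Phf20, a histone acetyltransferase subunit, was at least 7.64-fold higher, and Arhgap20 with halved counts at least 6.64-fold. The caput libraries were shallow, with a median of 32223 reads against 62430 in cauda, and the floor of 3 reads over the group sets these bounds. Column names carry S numbers that recur between the regions, S10 to S28 in cauda and S11 to S29 in caput. The 2 sets may thus belong to separate series, although what the number stands for was not given. Region could not be told apart from such a difference.

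Outside testis and sperm the members with the largest share of their summed mean levels, by the rule for named genes, were Fth1, Eif4ebp2, March08, Snx30 and Ppp1r12b. Fth1 (chr19:9980598-9985098, plus strand) was at 48.3 ± 28.4 RPM in cauda (0, 48.9 and 89.5), 31.8 ± 27.4 in sperm, 29.4 ± 79.4 in liver (0, 6.35 and 331) and 7.38 ± 14.4 in testis. It was the most read member of liver, with 52 of 422 reads, or 33 of 250 without low-protein replicate 5. Eif4ebp2, a repressor of translation initiation, was at 75.7 ± 292 RPM in liver, but its median there was 1.24 RPM and the highest value of 1209 RPM came from 1 read in a high-fat library of 827 reads. March08, now named Marchf8, a membrane-bound ubiquitin ligase, was at 35.4 ± 35.6 RPM in cauda, 24.4 ± 26.9 in sperm and 7.30 ± 13.2 in testis. Snx30, a sorting nexin, was at 35.2 ± 33.2, 27.1 ± 37.2 and 4.79 ± 6.51 RPM in the same order.

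The promoters of the hosts were compared between members grouped by their calls in sperm against testis. Whether members of a group vary together was not tested. RefSeq (build GRCm38.p6) listed a promoter for 57 of the 76 hosts. The 250 bases before the transcript start were searched for 1 form of the MYB core, CAGTTG, and its reverse complement CAACTG. Other forms of the core were not searched, so 0 matches does not mean that a window lacks them. At least 1 match was found in 12 of 57 hosts (21.05%) and in 3658 of all 32851 listed promoters (11.14%). Among the hosts of members lower in sperm under all 4 scalings 1 of 6 held a match, among those of members higher in sperm 4 of 24, and among the others 7 of 27. Printed are 4 windows, 5′ to 3′ on the host's strand, with matches in capitals. Strbp was lower in sperm (chr2:37703860-37704109, minus strand, 0 matches), and Mgll was abundant in testis, cauda and sperm (chr6:88724162-88724411, plus strand, 1 match). Tfcp2l1 (chr1:118627695-118627944, plus strand, 1 match) and Cmtm4 (chr8:104395808-104396057, minus strand, 0 matches) were both higher in sperm.
Strbp: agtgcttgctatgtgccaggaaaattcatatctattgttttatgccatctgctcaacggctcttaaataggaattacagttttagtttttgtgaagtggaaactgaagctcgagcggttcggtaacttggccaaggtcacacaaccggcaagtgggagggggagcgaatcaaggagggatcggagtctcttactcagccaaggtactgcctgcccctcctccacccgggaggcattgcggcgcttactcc
Mgll: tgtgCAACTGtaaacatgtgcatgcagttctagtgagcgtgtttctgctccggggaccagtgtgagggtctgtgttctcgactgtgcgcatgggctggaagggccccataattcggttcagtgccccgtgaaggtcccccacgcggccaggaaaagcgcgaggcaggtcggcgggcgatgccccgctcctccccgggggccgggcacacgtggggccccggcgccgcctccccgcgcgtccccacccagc
Tfcp2l1: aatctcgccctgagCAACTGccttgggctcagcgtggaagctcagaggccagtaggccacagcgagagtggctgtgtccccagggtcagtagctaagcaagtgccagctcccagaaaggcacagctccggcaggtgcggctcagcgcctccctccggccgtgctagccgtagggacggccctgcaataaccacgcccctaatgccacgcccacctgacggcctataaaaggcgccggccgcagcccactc
Cmtm4: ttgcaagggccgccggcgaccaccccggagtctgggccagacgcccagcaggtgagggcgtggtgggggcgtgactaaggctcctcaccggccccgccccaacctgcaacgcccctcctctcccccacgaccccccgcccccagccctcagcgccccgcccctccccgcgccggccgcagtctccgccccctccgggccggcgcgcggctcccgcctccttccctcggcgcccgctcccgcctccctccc
A match is a description of the letters only. The G and C content of these windows was 50.8% for Strbp, 68.0% for Mgll, 65.2% for Tfcp2l1 and 79.6% for Cmtm4, against a median of 66.4% over the 57 hosts.

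Diet was compared within each tissue, the low-protein diet with its control and the high-fat diet with the high-fat control. In testis 16 members passed the filter. None was called between low-protein and control (edgeR, 0 of 16 at an unadjusted p under 0.05, 0% of 444 features called), and DESeq2 called 0 of 76. None was called between high-fat and high-fat control either, with 2 members at an unadjusted p under 0.05 and 0% of features called, and DESeq2 called 0 of 76 members and 0.226% of features. The 2 were Arhgap20, with a log2 difference of -1.92 ± 0.92, and Strbp, with -1.54 ± 0.56 (edgeR, adjusted p = 0.613 for both). The difference between the low-protein effect and the high-fat effect was called for 0 of 16 members, with 1, Strbp, at an unadjusted p under 0.05, and for 0% of features, and DESeq2 called 0.

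The 2 control diets differed from each other in testis. Strbp was at 62.9, 23.2, 237.8, 102.8 and 49.2 RPM in the 5 control libraries and at 416.3, 785.1, 856.9, 616.0 and 312.1 RPM in the 5 high-fat control libraries, so the groups did not overlap. Low-protein libraries were at 215.8, 111.3, 304.0, 46.2 and 207.9 RPM and high-fat libraries at 140.9, 0, 134.6 and 381.1 RPM. Strbp was higher on the high-fat control diet than on the control diet by 1.63 ± 0.49 (edgeR, adjusted p = 0.0106), the only one of the 16 members called, in a comparison in which 46.6% of the 444 features were called. Its difference was 1.75 in DESeq2, which called 27.7% of features (adjusted p = 0.00146), and 1.67 in edgeR without the 2 testis libraries that stood apart (adjusted p = 0.0118, no filter on low counts). Without the filter on low counts it was 1.40 ± 0.52 and no longer called (edgeR, adjusted p = 0.0513), while Klf13, a zinc finger transcription factor, was called with 6 reads against 1 (3.44 ± 1.11, adjusted p = 0.0197), as were 20.1% of features.

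Lpp was at 42.4, 34.9, 314.3, 98.3 and 32.8 RPM in control testis libraries and at 208.1, 392.5, 593.2, 359.3 and 72.0 RPM in high-fat control libraries. These ranges overlapped, and the difference of 0.74 ± 0.55 was not called (edgeR, adjusted p = 0.268). All 16 members had a difference above 0, with a median of 1.09 against 0.11 for all features. The filter can be passed on the reads of 1 diet group alone, so it may favour members that are high in that group. The 16 also come from the same libraries, so their shared sign is no test of the diets. With total counts as the scaling 12 of the 16 were called (54.1% of features). With TMM computed without piRNA precursors 10 were called (55.6%), and without control replicate 3 the count was 5 (59.3%). Without high-fat control replicate 4 or 5 the counts were 2 and 3 (44% and 43.5%). Depth and other RNA classes moved with these diets in testis: mean depth was 364174 reads on the control diet and 32549 on the high-fat control diet, the share of cytosolic tRNA was 62.8% and 33.2%, and the share of band-named precursors was 1.53% and 7.55%. Their part in the difference was not tested, and the labels give no batch that could separate them.

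**Figure D4:**
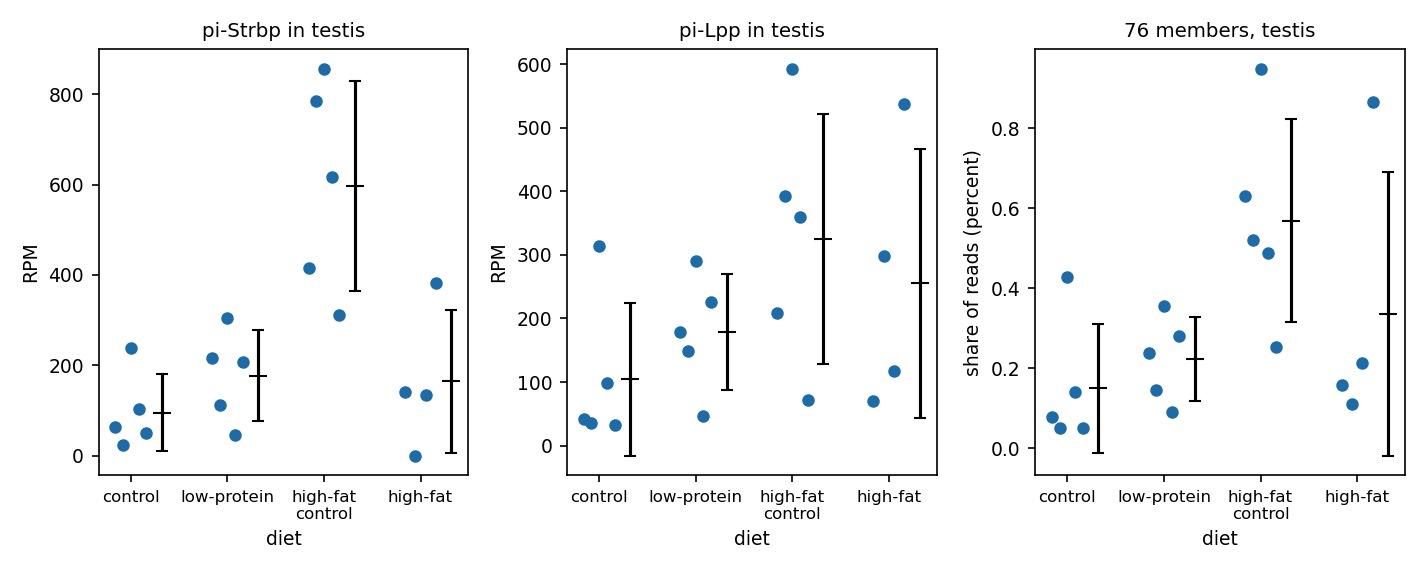
Levels of pi-Strbp and pi-Lpp (RPM) and the summed share of the 76 members (percent of kept reads) in each testis library by diet, with mean ± SD beside the points. The 5 high-fat control libraries lie above all 5 control libraries for pi-Strbp, and the groups overlap for pi-Lpp and for the summed share.

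In sperm, 0 members passed the filter, and no diet call was made without it among 75 members tested: edgeR gave 4 at an unadjusted p under 0.05 for low-protein against control and 2 for high-fat against high-fat control, DESeq2 gave 1 and 0, and neither tool called any of the 813 features (0%). Lpp, as an example, was at 52.9, 88.3, 114.4, 120.7 and 281.2 RPM in control sperm and at 175.6, 165.7, 162.9, 335.6 and 231.4 RPM in low-protein sperm, and these ranges overlapped. Sperm libraries held a median of 69 member reads, so the spread of a single member there is wide.

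In cauda Lpp, Nsd1, Ppp1r12b and Wdfy3 passed the filter. None was called between low-protein and control, where 0.922% of 217 features were called, or between high-fat and high-fat control, where 0% were (edgeR, 0 of the 4 at an unadjusted p under 0.05 in either comparison). DESeq2 called 0 of 74 members in both, with 2.45% and 2.82% of features called. In liver, heart and caput 0 members passed. In liver 2 of the 64 members with a read were called between low-protein and control without the filter. They were Mlec, a lectin of the endoplasmic reticulum (3.52 ± 1.21, edgeR, adjusted p = 0.0247), and Mgll (3.33 ± 1.22, adjusted p = 0.0375). Mgll had 0, 0, 2, 1 and 4 reads in the 5 low-protein liver libraries and 0 in the 4 control libraries. Without the filter 18.4% of 692 features were called in that comparison. Both calls were lost without low-protein liver replicate 5 (edgeR, adjusted p = 0.214 and 0.142), and DESeq2, which gave no adjusted p for them, had unadjusted p-values of 0.404 and 0.311 in its test.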

How the data were processed

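The authors deposited 1 table of raw read counts, in whole numbers, with small RNA names as rows and the 111 libraries as columns. Reads were trimmed with cutadapt and the build is mm10, with DESeq2 also named, per the submitters' processing notes. The aligner, the annotation, read lengths and the use of strand were not given in the sources used here. Nor was the meaning of gt65, with which the column names end. Groups came from the sample titles. Entries that differed by less than 5% of their reads over all libraries, with at least 50 reads compared, were reduced to 1, which left 1040 features and 51.04% of the summed counts.

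Counts were tested with edgeR 4.0.16 (quasi-likelihood, TMM, robust) in R 4.3.3, over all tissues with diet as a term, and per tissue for diets. DESeq2 1.42.0 was an alternative. Benjamini-Hochberg adjustment ran over all features tested. A standard error is the log2 difference over the root of its F statistic, so it is unstable near 0 or where a group has no reads. Bounds use a floor of 3 reads over the group, and exact intervals are 95% and cover counting error only, since reads carry no molecular identifiers. Depth ranged from 827 to 1467855 reads, with 3 libraries under 5000. The fits were tested on simulated data with 200 features changed 8-fold. The unfiltered fit of sperm against testis recovered 190 of 200, with 19 false calls among 905 features tested. In the filtered fit only 97 of the 200 were tested, and it recovered 97 with 3 false calls among 363. The simulated libraries shared the mean composition of testis, equal numbers of features were raised and lowered, and 1 spread was set for all. They therefore do not show how the fits fare where libraries differ in composition, as these tissues do. Of 204 pairs of libraries of a group none agreed within sampling noise (smallest chi-square per degree of freedom 1.54).

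Named members are the 12 with the most reads, those called by diet in testis or sperm, the 5 with the largest called difference in each tissue comparison, and up to 5 with the largest share outside testis and sperm; others were named after their values were seen. The members and lists were chosen with earlier results of these data known. Gene positions are from GENCODE M21, promoters from RefSeq GRCm38.p6.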

Additional observations from a re-analysis of the deposited data

Results flagged for a closer look

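In each of the 24 combinations of tissue and diet, the summed share of reads in the 76 members was compared among the libraries, and 5 libraries lay apart from the rest of their group. Chance alone marks about 1 in 20 such groups.

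Control testis replicate 3 held 0.429% of its reads in members, against 0.0494% to 0.139% in the other control libraries, and its share of band-named precursors was 3.58%. High-fat testis replicate 4 held 0.864%, against 0.109% to 0.212% in the other high-fat libraries, with a band-named share of 9.78%. In both, the band-named share lay above that of all other libraries of the group, and it was not tested whether the 2 are linked.

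Low-protein liver replicate 5 held 0.0505%, from 172 member reads of 51 members, against 0.00472% to 0.0146%. High-fat heart replicate 3 held 0.0138%, from 68 member reads of 28 members, against 0.000290% to 0.00153%. High-fat control heart replicate 4 held 0.0177%, but from only 2 reads in 11318, with an exact binomial 95% interval of 0.00214% to 0.0638%.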

How the results depend on the processing

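Fits without the filter on low counts were listed at the outset only under TMM scaling; the other settings without the filter, the halving of even-only counts, library totals over all entries, the block by library number and the removal of the libraries that stood apart were chosen after seeing the data. Calls in the filtered tissue fit rest on 2 members, and the number tested sets most changes. Testis against the other tissues gave 2 calls, 42 without the filter (52.7% of features) and 34 in DESeq2 (47.2%), and 1 with the control diets only or with halving, where only 1 member was tested. Cauda against caput gave 2, then 68 (52.3%), 28 (33%), 1 and 1 under the same settings. Sperm against testis gave 0, but 55 without the filter (66.3%), 44 in DESeq2 (51.5%), and 1 each with relative log expression, without piRNA precursors in TMM, with all entries as features, with the control diets only and with the block by library number. Sperm against cauda gave 0, but 11 without the filter (34.8%), 13 in DESeq2 (29.3%) and 1 with relative log expression. The comparison of the 2 control diets in testis gave 1 member, 12 with total counts, 10 without piRNA precursors in TMM and 2 with only the groups compared (54.2%), and low-protein against control in liver gave 2 without the filter.

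Without the filter, members higher in sperm than in cauda numbered 9 under TMM (23.8% of features), 41 with relative log expression (42.1%), 12 in DESeq2 (26.9%), 2 with total counts (16.4%) or 1 entry per gene (15.7%), 3 with the replicate block (20.1%), and 1 with the control diets only (10.8%), with halving (12.7%), without piRNA precursors in TMM (13.7%), without libraries under 5000 reads (14%) or with totals over all entries (8.18%). Those lower numbered 2 (11%), 1 in DESeq2 (2.43%) and 18 with totals over all entries (33.3%). Members higher in sperm than in testis fell from 46 (31.6%) to 27 with the control diets only (21.3%) and 8 with totals over all entries (11.2%), and those lower numbered 9 (34.7%), 14 with total counts (43.4%), 5 in DESeq2 (22.8%) and 37 with totals over all entries (63.9%). DESeq2 gave 28 members higher in cauda than in caput (22.9%) in place of 68 (41.8%). Members higher in testis numbered 40 (42%), and 63 with totals over all entries (73.5%). The 2 members lower in testis became 1 with 1 entry per gene or without libraries under 5000 reads and 0 with total counts, relative log expression, the control diets only or totals over all entries. The cause of these changes was not tested.

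Leaving out each replicate number in turn gave 1 to 2 members for testis against the rest and for cauda against caput and 0 to 2 for sperm against testis, with the filter. Without it the ranges were 0 to 2 members lower in testis, 30 to 46 higher and 9 to 15 lower in sperm than in testis, 0 to 4 higher and 2 to 3 lower in sperm than in cauda, and 62 to 69 higher and 0 to 1 lower in cauda than in caput. The comparison of the control diets in testis gave 1 to 5.

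Replicate numbers did not meet the condition for pairing, a correlation above 0.1 in every pair: over 270 same-numbered pairs of libraries from different tissues on 1 diet the median correlation of deviations was -0.0040, with 70 above 0.1. Between diets within testis the median was 0.0065 (8 of 27 pairs above 0.1), and within sperm 0.142 (15 of 27), against -0.040 for other sperm pairs. With the replicate block 2, 0, 0 and 2 members were called in the 4 tissue comparisons in the filtered fit, as without it. In the unfiltered fit the block lowered the number of members higher in sperm than in cauda, as given above. The condition for pairing is strict, so failing it does not show that the tissues came from different mice. Libraries were treated as independent in the tissue fits, although some may share a mouse. Of 349 alternative values of named members, 319 kept their direction and call, 30 kept the direction and lost the call, and 0 reversed. This tally covers only the largest called differences in each of the 4 tissue comparisons, and Strbp between the control diets. Values outside the tally did reverse. With totals over all entries, sperm against testis turned direction for Mgll, Nsd1, Tacc1 and Ankrd11, as given above. Tacc1 and Ankrd11 went from called higher under TMM to called lower.

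Member reads were few in sperm, liver, heart and caput, and depth there limits any statement on a single member.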
